A study of Rattus norvegicus with 18 samples.

Results

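The genes described here bring glucose into the cardiomyocyte, break it down to pyruvate and lactate, store it as glycogen or sense sugar and oxygen. A list of 46 such genes was drawn up by function, with earlier results of these data known. Shares of its genes called are therefore set beside the share of all clusters as a description and not as a test. The list's members are the 28 genes that the array's annotation names on a transcript cluster with exactly 1 gene symbol. Each was read on the brightest such cluster. They comprise 3 of 4 listed genes of glucose uptake, 8 of 15 of glycolysis, 2 of 4 of the PFKFB switch, 7 of 9 of lactate and pyruvate handling, 6 of 10 of glycogen and 2 of 4 of the hypoxia and sugar sensors. The arrays carried 36685 clusters, of which 14824 had 1 symbol, for 14557 genes. The listed genes Slc2a3, Hk1, Gpi, Pfkp, Pfkfb2, Aldoa, Pgam1, Eno1, Ldha, Pdk2, Gbe1, Pygb and Ugp2 were not analysed here, nor was Tpi1, which the annotation places only on a cluster with several symbols. Pfkfb4, Ppp1r3c, Hif1a and Vegfa were named through the study's own gene sheet only and are described apart from the members.

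Neonatal rat ventricular cardiomyocytes, isolated from Wistar rats 1 to 3 days old and held for 3 days in culture, were hybridised to 18 arrays in 6 groups of 3. In the stretch experiment the stretch was cyclic, by 20% at 0.5 Hz for 24 h. The groups were ST with NCXI (stretch with 10 µM KB-R7934, an inhibitor of the sodium-calcium exchanger), ST (the same stretch without the inhibitor) and ST control (unstretched for 24 h). The inhibitor's name is given as the labels spell it. In the tachycardia experiment the groups were TC with NCXI (pacing at 8 Hz for 3 h with 10 µM KB-R7934), TC (the same pacing without the inhibitor) and TC control (pacing at 1 Hz for 3 h). No genetic change was made in any group. Each array was labelled as 1 of 3 biological replicates and pooled 2 to 6 technical replicates. The culture was enriched in myocytes and not pure. No unstretched or normally paced cells with KB-R7934 were among the arrays, so an effect of the inhibitor alone cannot be told apart from its effect under the trigger. The study could not exclude that the inhibitor also acts on other targets, such as TRP, calcium and potassium channels. The experiments also differed in duration and in the kind of control.

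Glucose enters the heart muscle cell through facilitative transporters, is trapped by hexokinase and is split in glycolysis, whose pace is set largely at phosphofructokinase. The neonatal heart relies on glycolysis and lactate more than the adult heart, which burns mainly fatty acids, and it keeps a store of glycogen. The hypoxia-inducible factors are known to raise transcription of many glucose transporters and glycolytic enzymes. Cardiac calcium handling, in which the sodium-calcium exchanger takes part, sets much of the demand for the energy these pathways supply.

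All values are log2 signals as the authors deposited them, and differences are on the log2 scale, with the standard error (SE) of the limma fit. A gene is said to have changed where the unadjusted limma p was under 0.05 and the difference at least 1.2-fold (0.263 on the log2 scale). The study used the same cut-offs of p and fold, without saying there whether its p was adjusted, and its methods name a two-way analysis of variance with a Benjamini-Hochberg correction for the arrays. No member passed 0.05 after that correction in such an analysis of group and replicate number. No member reached an adjusted p under 0.05 in any comparison of the limma fit to each experiment, and those said below to have changed are all that were under 0.05 unadjusted. In 1 fit to all 18 arrays Hk2 reached an adjusted limma p of 0.012 in ST with NCXI against ST, and with limma's trend and robust settings Ldhb reached 0.0463 in ST with NCXI against ST control. None of the 28 members was dim, in that no highest group mean lay under 3.78, the lower quartile of all values. The lowest was Pfkfb1, at the 44.7th percentile of all clusters. Signals of Pfkfb1 (4.68 to 5.31 over all arrays) and of Slc2a4 in ST arrays (4.61 to 4.99) were still low. They lay near or under the array medians of 5.26 to 5.34.

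The labelled cell type was checked first. All 9 cardiomyocyte markers that could be read lay above the upper quartile of all clusters, and 11 of 12 fibroblast markers did so too. Mean levels of the cardiomyocyte markers ranged over 11.28 to 11.55 in ST arrays and 10.82 to 11.40 in ST control arrays, with 1 of 9 markers called higher in ST and a median difference of 0.40. Of 13 macrophage and leukocyte markers, none lay under the lower quartile. Correlations between any 2 arrays ran from 0.9691 to 0.988. RNA came from whole cultures, so fewer cells of a type and less RNA per cell cannot be told apart.

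In ST against ST control 1 member rose and 3 fell, 14.3% of the 28 against a background of 7.45% of all clusters called in this comparison (3.12% higher and 4.33% lower). The median difference was 0.05 over the members and -0.0049 over all clusters. These counts are from the fit without replicate numbers. With the replicate number as a block 8 members were called, beside 9.49% of all clusters. In ST with NCXI against ST 5 members rose and 2 fell, 25% of the members against a background of 9.13% (4.6% higher and 4.52% lower). The medians were 0.14 and 0.00812. In ST with NCXI against ST control 4 rose and 2 fell, 21.4% against a background of 10.2% (4.79% higher and 5.38% lower). The stretch comparisons share arrays with each other, so their values for a gene stand side by side and are not independent. The 2 groups of 3 arrays did not overlap for 25% of the members in ST against ST control, beside 12.3% of all clusters. In ST with NCXI this held for 35.7% against ST (15.2% of all clusters) and 17.9% against ST control (16.8%).

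In TC against TC control no member was called, where the background was 3.91% of all clusters (2.09% higher and 1.82% lower). None of the 28 had an unadjusted limma p under 0.05, and no member was called by a two-way analysis of variance of group and replicate number, by the methods' t-test of the 2 groups alone or under any other alternative that used every array. Without TC control replicate 1 Ppp1r3a stood at 0.40 and was called, and without TC replicate 1 Pdp1 stood at 0.35 and was called. In TC with NCXI against TC 2 members rose and 1 fell, 10.7% against a background of 5.77% (3.27% higher and 2.5% lower). With the replicate number as a block 4 members were called there, beside 7.86% of all clusters. In TC with NCXI against TC control 4 rose and 2 fell, 21.4% against a background of 8.65% (4.7% higher and 3.95% lower). Of the members called with NCXI, 2 (Hk2 and Egln3) were called in both experiments, which are 2 of 7 on stretch and 2 of 3 on tachycardia. Both were higher each time. The share of all clusters called in both was not counted, so this overlap is not set against a background. The call of Egln3 in ST with NCXI against ST was lost without some single arrays, as given below. Groups did not overlap for 0% of the members in TC against TC control, beside 8.58% of all clusters. In TC with NCXI this held for 17.9% against TC (10.4% of all clusters) and 21.4% against TC control (15%).

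Leukocyte markers moved with the inhibitor too. Of 13 macrophage and leukocyte markers, 10 were called lower in ST with NCXI against ST (median -1.21) and 6 in TC with NCXI against TC (median -0.48). The mean log2 level of the list ranged over 5.35 to 6.07 in ST with NCXI arrays, 6.15 to 7.56 in ST arrays and 6.33 to 7.26 in ST control arrays. It ranged over 6.23 to 6.71 in TC with NCXI arrays, 6.74 to 7.10 in TC arrays and 6.64 to 7.26 in TC control arrays. Its part in the differences of the sugar genes was not tested.

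**Figure D1:**
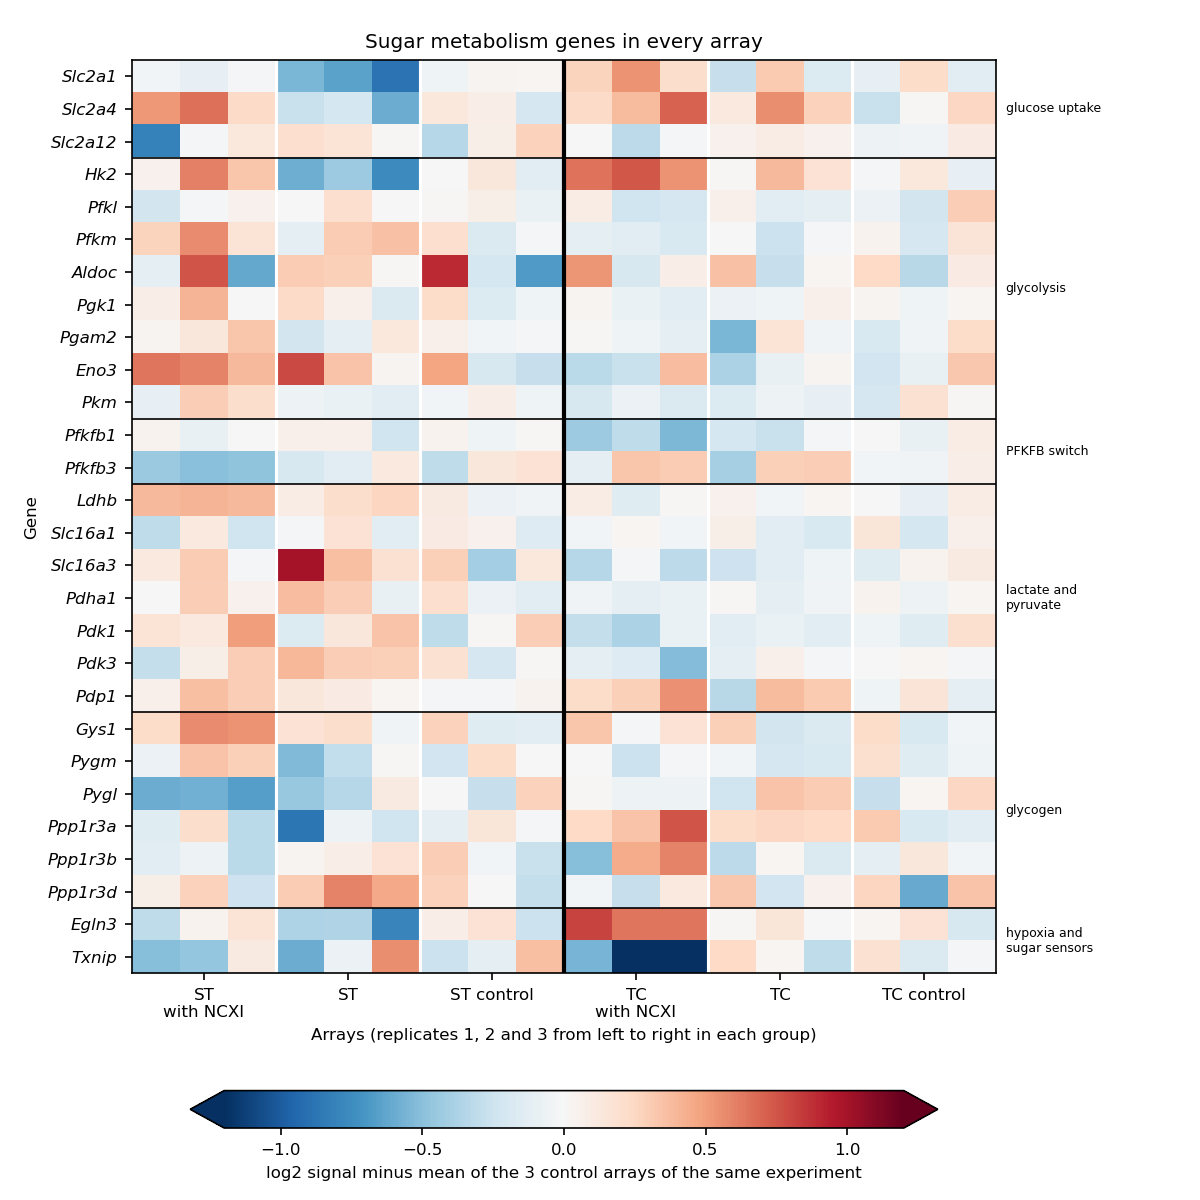
Log2 signal of each of the 28 members (rows, grouped by step) in each of the 18 arrays (columns, by group), as the difference from the mean of the 3 control arrays of the same experiment; colours saturate beyond 1.2 in either direction. Slc2a1, Hk2 and Egln3 are blue in the 3 ST arrays, and Txnip is darkest in the TC with NCXI arrays.

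**Figure D2:**
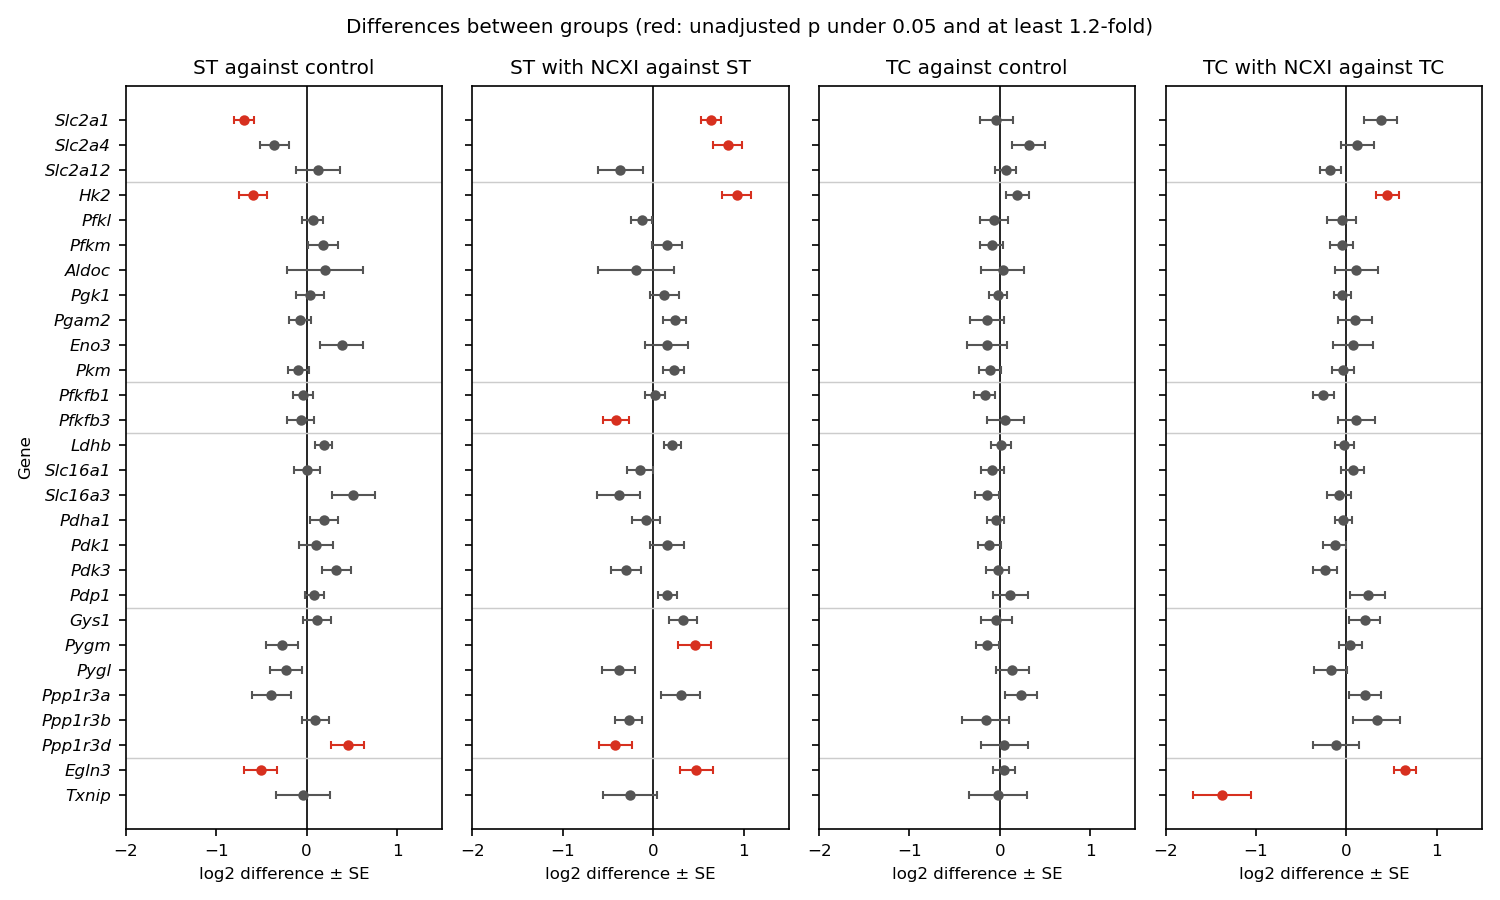
Log2 difference with its SE (x axis) for each member (rows) in the 4 main comparisons; red points are past an unadjusted limma p of 0.05 and 1.2-fold. There are 4, 7, 0 and 3 red points from left to right.

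The promoters of Slc2a1, Hk2 and Egln3 are shown because these members fell in ST and had signals in ST with NCXI above those in ST. They are 300 bases long, 250 before and 50 after the start of the gene, from RefSeq on GRCr8: Slc2a1 at chr5:138002272-138002571 on the plus strand, Hk2 at chr4:116841226-116841525 and Egln3 at chr6:77410966-77411265 on the minus strand, each printed along its gene's strand. Capitals mark ACGTG or GCGTG on either strand (CACGT or CACGC as read on the other), the core letters that hypoxia-inducible factors bind.
Slc2a1: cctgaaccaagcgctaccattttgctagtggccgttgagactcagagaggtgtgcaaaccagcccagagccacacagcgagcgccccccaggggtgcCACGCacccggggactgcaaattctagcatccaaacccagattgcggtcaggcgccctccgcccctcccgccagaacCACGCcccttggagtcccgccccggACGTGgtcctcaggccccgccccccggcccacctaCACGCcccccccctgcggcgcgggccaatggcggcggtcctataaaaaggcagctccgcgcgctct
Hk2: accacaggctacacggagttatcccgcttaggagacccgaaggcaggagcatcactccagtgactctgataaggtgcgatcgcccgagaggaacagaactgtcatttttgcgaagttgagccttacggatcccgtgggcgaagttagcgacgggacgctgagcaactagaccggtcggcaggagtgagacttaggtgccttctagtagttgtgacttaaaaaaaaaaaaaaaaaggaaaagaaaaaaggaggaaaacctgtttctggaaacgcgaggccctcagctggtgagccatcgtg
Egln3: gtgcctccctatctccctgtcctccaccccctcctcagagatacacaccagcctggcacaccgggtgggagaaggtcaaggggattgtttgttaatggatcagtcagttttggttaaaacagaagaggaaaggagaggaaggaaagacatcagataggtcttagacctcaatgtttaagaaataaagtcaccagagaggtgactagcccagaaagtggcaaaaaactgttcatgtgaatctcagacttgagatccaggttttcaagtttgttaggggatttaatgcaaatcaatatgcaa
Slc2a1 held 1 ACGTG, starting 51 bases before the start, and 3 GCGTG on the other strand. The windows of Hk2 and Egln3 held neither. Of the 28 members, 23 matched a RefSeq promoter, and 14 of these 23 (60.9%) held ACGTG or GCGTG, against 41.6% of all 33469 promoters of this length. ACGTG was in 10 of 23 and GCGTG in 11 of 23, against 19.3% and 29.7% of all promoters. CACGTG, the letters that the sugar-responsive ChREBP complex can bind and which contain ACGTG on both strands, was in 3 of 23, against 6.42%. Such a match is a description of the letters and not evidence of a bound site.

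Of the 3 glucose transporters, 1 fell in ST against ST control, where 7.45% of all clusters were called. In ST with NCXI against ST 2 of the 3 rose, beside 9.13% of all clusters. None was called in TC against TC control or in TC with NCXI against TC (3.91% and 5.77% of all clusters). With so few genes in a step, shares were not compared between steps. Slc2a1 (cluster 17801572) encodes GLUT1, the transporter for basal glucose entry and the main one of the fetal heart. Its log2 signal was 9.02, 8.92 and 8.68 in ST arrays, against 9.51, 9.59 and 9.59 in ST control arrays. Every ST array lay below every ST control array, and the difference was -0.69 (SE 0.11, limma adjusted p = 0.176, at an unadjusted p of 0.000146). In ST with NCXI arrays Slc2a1 stood at 9.53, 9.47 and 9.54, within the range of the control arrays or just under it. The difference was 0.64 from ST (SE 0.11, limma adjusted p = 0.127) and -0.05 from ST control (SE 0.11). Leaving out any 1 array kept Slc2a1 between -0.76 and -0.59 in ST and between 0.54 and 0.71 with NCXI, called each time.

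In the tachycardia experiment Slc2a1 had 10.22, 10.49 and 10.17 in TC with NCXI arrays, 9.68, 10.27 and 9.79 in TC arrays and 9.86, 10.18 and 9.83 in TC control arrays. Replicate 2 was the highest of each of these groups, and the ranges overlapped. The difference of TC with NCXI from TC was 0.38 (SE 0.18) and missed the threshold at an unadjusted limma p of 0.0682. With the replicate number as a block, which the arrays of this comparison bear out, the same 0.38 passed it at an unadjusted limma p of 0.0082. TC itself differed from TC control by -0.04 (SE 0.18).

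Slc2a4 (cluster 17657978) encodes GLUT4, the transporter that insulin and contraction bring to the cell surface. Its signal was 5.72, 5.86 and 5.43 in ST with NCXI arrays, 4.94, 4.99 and 4.61 in ST arrays and 5.33, 5.28 and 5.00 in ST control arrays. The inhibitor arrays lay above all the others, and the highest ST array lay just below the lowest control array. ST with NCXI was higher than ST by 0.82 (SE 0.16, limma adjusted p = 0.144), called without any single array, and higher than ST control by 0.47 (SE 0.16). That last call was lost without ST control replicate 3 (0.37) or ST with NCXI replicate 2 (0.37). ST against ST control gave -0.36 (SE 0.16), which missed the threshold at an unadjusted limma p of 0.0523 and passed it with the replicate block at 0.00612.

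On tachycardia Slc2a4 stood at 6.24, 6.39 and 6.71 in TC with NCXI arrays, 6.13, 6.57 and 6.28 in TC arrays and 5.74, 6.02 and 6.26 in TC control arrays. The 3 groups overlapped. TC with NCXI differed from TC by 0.12 (SE 0.18) and from TC control by 0.44 (SE 0.18), a call that was lost without TC control replicate 1 (0.31), TC control replicate 2 (0.45), TC replicate 3 (0.44), TC with NCXI replicate 2 (0.47) or TC with NCXI replicate 3 (0.31), under the methods' t-test and under median centring. Slc2a12, which encodes the transporter GLUT12, ranged from 4.56 to 5.65 over all arrays and was called in no comparison. Its lowest array was ST with NCXI replicate 1.

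**Figure D3:**
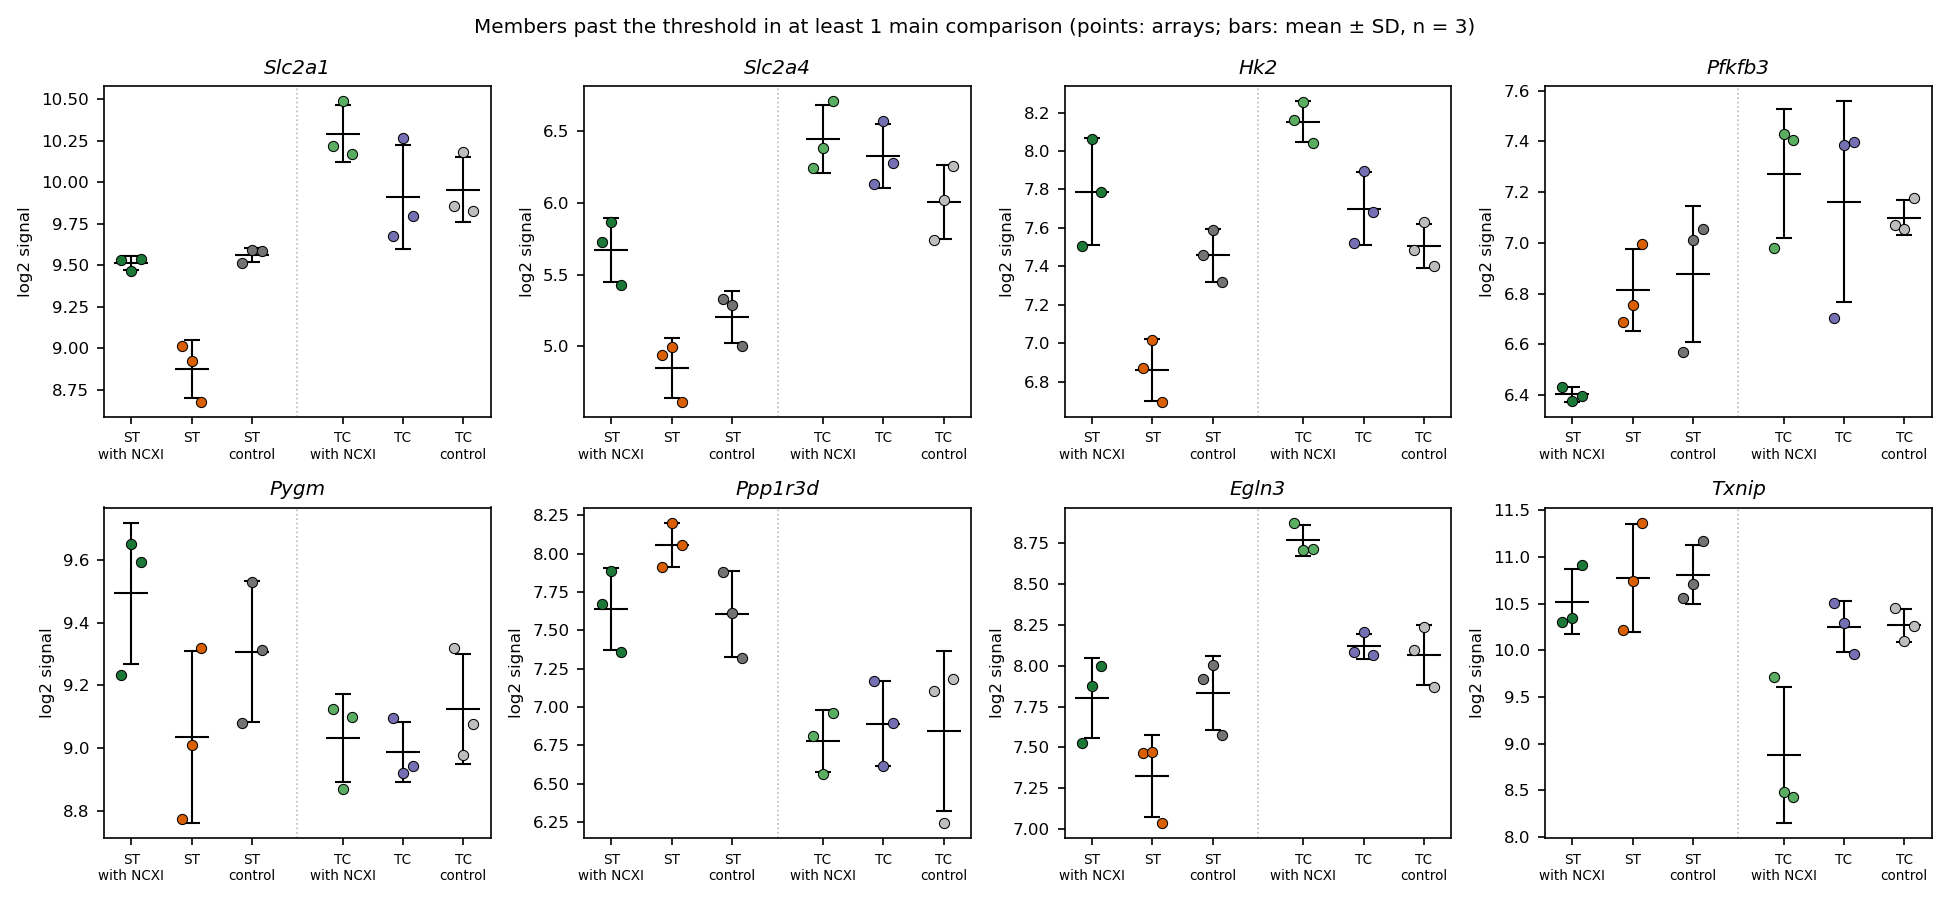
Log2 signal (y axis) per array (points) with the group mean and SD (bars, n = 3) for the 8 members called in at least 1 of the 4 main comparisons, by group (x axis). Slc2a1, Slc2a4, Hk2 and Egln3 have their lowest arrays in ST, and Txnip is at 9.72 or under in TC with NCXI.

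Of the 8 glycolytic members, Hk2 was called in 3 of the 4 main comparisons and the other 7 in none. That is 12.5% in each of the 3, against 7.45% of all clusters in ST, 9.13% with NCXI on ST and 5.77% with NCXI on TC. Hk2 (cluster 17792516) encodes the hexokinase of insulin-sensitive muscle, which phosphorylates glucose on entry. It had 7.51, 8.07 and 7.79 in ST with NCXI arrays, 6.87, 7.02 and 6.70 in ST arrays and 7.46, 7.59 and 7.32 in ST control arrays. Every ST array lay below every other array of the experiment. Hk2 fell by 0.59 in ST against ST control (SE 0.16, limma adjusted p = 0.409) and was higher by 0.92 in ST with NCXI than in ST (SE 0.16, limma adjusted p = 0.127), 1.9-fold. Both calls were kept without any single array, over -0.67 to -0.51 and 0.79 to 1.06. Against ST control, ST with NCXI stood at 0.33 (SE 0.16), short of the threshold at an unadjusted limma p of 0.0668.

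On tachycardia Hk2 had 8.16, 8.26 and 8.04 in TC with NCXI arrays, 7.52, 7.90 and 7.68 in TC arrays and 7.49, 7.63 and 7.40 in TC control arrays. The inhibitor arrays lay above all the others. The difference was 0.45 from TC (SE 0.13, limma adjusted p = 0.709) and 0.65 from TC control (SE 0.13, limma adjusted p = 0.315), and neither call depended on a single array. TC against TC control gave 0.19 (SE 0.13).

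The other 7 glycolytic members were Pfkl and Pfkm (phosphofructokinase subunits), Aldoc (an aldolase), Pgk1 (phosphoglycerate kinase), Pgam2 (phosphoglycerate mutase of muscle), Eno3 (enolase of muscle) and Pkm (pyruvate kinase). Their differences in ST ran from -0.09 for Pkm to 0.39 for Eno3, and with NCXI on ST from -0.19 for Aldoc to 0.24 for Pgam2. Aldoc varied most between replicates, with 7.91, 8.77 and 7.40 in ST with NCXI arrays, 8.32, 8.30 and 8.03 in ST arrays and 8.91, 7.80 and 7.33 in ST control arrays. With an SE of 0.42 its difference of 0.20 in ST lay within the replicate spread. In TC with NCXI against TC these 7 lay between -0.05 for Pfkl and 0.11 for Aldoc.

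Eno3 was the only glycolytic member called higher in ST with NCXI against ST control, at 0.54 (SE 0.24). The group means were 7.27 and 6.73. That call was lost without any 1 of ST with NCXI replicate 1 (0.49), replicate 2 (0.51) or replicate 3 (0.62), ST replicate 2 (0.54), ST control replicate 2 (0.44) or ST control replicate 3 (0.40), and under the methods' t-test or with dim clusters left out. With the replicate block Eno3 was also called in ST against ST control, at 0.39 (at an unadjusted limma p of 0.0289).

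The PFKFB enzymes make and remove the fructose bisphosphate that activates phosphofructokinase. Pfkfb3 (cluster 17716849), the isoform with the strongest kinase activity, had 6.43, 6.38 and 6.40 in ST with NCXI arrays, 6.69, 6.76 and 7.00 in ST arrays and 6.57, 7.01 and 7.05 in ST control arrays. All the inhibitor arrays lay below all the others. Pfkfb3 fell by 0.41 against ST (SE 0.15, limma adjusted p = 0.418) and by 0.48 against ST control (SE 0.15). The call against ST was lost without ST replicate 3 (-0.32) or ST with NCXI replicate 2 (-0.40), and the call against ST control was kept without any single array. On tachycardia Pfkfb3 stood at 6.98, 7.43 and 7.41 in TC with NCXI arrays, 6.70, 7.38 and 7.40 in TC arrays and 7.07, 7.05 and 7.18 in TC control arrays, with overlapping ranges.

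Pfkfb1, the isoform of liver and skeletal muscle, changed in neither of the 2 stretch comparisons above (-0.04 in ST, 0.02 with NCXI on ST). It averaged 4.80 ± 0.12 in TC with NCXI and 5.22 ± 0.09 in TC control (SD, n = 3 each), a fall of 0.43 (SE 0.12) that held without any single array. Against TC the difference was -0.26 (SE 0.12), short of the threshold.

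The lactate and pyruvate members were Ldhb (lactate dehydrogenase B), the lactate transporters Slc16a1 and Slc16a3, Pdha1 (a subunit of pyruvate dehydrogenase), the kinases Pdk1 and Pdk3 that inactivate that enzyme and the phosphatase Pdp1 that restores it. None of the 7 was called in the 4 main comparisons, and none had an unadjusted limma p under 0.05 there. The shares of all clusters called were 7.45% in ST, 9.13% with NCXI on ST, 3.91% in TC and 5.77% with NCXI on TC. Pdk4, a further kinase of this enzyme that is no member and was picked out after its values were seen, averaged 8.98 ± 0.36 in ST with NCXI, 9.31 ± 0.88 in ST and 10.68 ± 0.49 in ST control (SD, n = 3 each). It fell by 1.37 in ST against ST control (SE 0.42, limma adjusted p = 0.47), with overlapping arrays, and fell by 1.71 in ST with NCXI against ST control (SE 0.42), without overlap. All 7 members had a higher mean in ST than in ST control, as had 17931 of all 36685 clusters. The 7 genes were read on the same arrays, so their directions are not independent. Of the 9 cardiomyocyte markers, 8 also had a higher mean in ST, with a median difference of 0.40. The median difference of the 7 members was 0.19, against -0.0049 over all clusters, with a range of 0.01 to 0.52. Slc16a3, the exporter of lactate from glycolytic cells, was at the upper end of that range, with 8.29, 7.66 and 7.48 in ST arrays against 7.58, 6.89 and 7.42 in ST control arrays. These ranges overlapped (SE 0.24). Slc16a3 passed the threshold with the replicate block (at an unadjusted limma p of 0.0474) and in the fit to all 18 arrays, as did Pdk3 in that fit and under the methods' t-test, at 0.33 (SE 0.16).

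Pdk3 had 7.13, 7.03 and 7.02 in ST arrays against 6.92, 6.53 and 6.75 in ST control arrays, with no overlap. Ldhb was the member called in ST with NCXI against ST control. It had 11.52, 11.54 and 11.52 in ST with NCXI arrays, 11.22, 11.34 and 11.39 in ST arrays and 11.24, 11.06 and 11.09 in ST control arrays. The inhibitor arrays lay above all the others, by 0.40 from ST control (SE 0.10, limma adjusted p = 0.189) and by 0.21 from ST (SE 0.10). On tachycardia the 7 genes differed by -0.24 to 0.24 in TC with NCXI against TC and by -0.14 to 0.12 in TC against TC control.

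The glycogen members were split in direction. Pygm (cluster 17623476), the muscle phosphorylase that releases glucose units from glycogen, had 9.23, 9.65 and 9.59 in ST with NCXI arrays, 8.77, 9.01 and 9.32 in ST arrays and 9.08, 9.53 and 9.31 in ST control arrays. The groups overlapped, ST replicate 3 lying above ST with NCXI replicate 1. The difference of ST with NCXI from ST was 0.46 (SE 0.18, limma adjusted p = 0.467) and was called. It was not called without ST replicate 1 (0.33), ST replicate 2 (0.45), ST with NCXI replicate 2 (0.38) or ST with NCXI replicate 3 (0.41), nor by the methods' t-test. In TC with NCXI against TC Pygm differed by 0.04 (SE 0.13).

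Ppp1r3d (cluster 17779876) encodes a subunit that brings protein phosphatase 1 to glycogen, where the phosphatase favours synthesis over breakdown. It had 7.67, 7.89 and 7.36 in ST with NCXI arrays, 7.91, 8.20 and 8.06 in ST arrays and 7.88, 7.62 and 7.32 in ST control arrays. All ST arrays lay above all the others. The difference was 0.45 in ST against ST control (SE 0.18, limma adjusted p = 0.597) and -0.42 in ST with NCXI against ST (SE 0.18, limma adjusted p = 0.504). The call in ST was lost without ST replicate 2 (0.38), ST replicate 3 (0.45), ST control replicate 2 (0.46) or ST control replicate 3 (0.31). The call with NCXI was lost without ST with NCXI replicate 1 (-0.44), ST with NCXI replicate 3 (-0.28), ST replicate 2 (-0.35), ST replicate 3 (-0.42) or ST control replicate 2 (-0.42), and both were lost under the two-way analysis of variance, the methods' t-test and the fit to all 18 arrays. The call with NCXI was also lost under quantile normalization. On tachycardia Ppp1r3d was called in no comparison and ranged from 6.24 to 7.18.

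Gys1, the glycogen synthase of muscle, and Pygl, the liver form of the phosphorylase, were called only in ST with NCXI against ST control. Gys1 averaged 7.59 ± 0.19 in ST with NCXI and 7.14 ± 0.24 in ST control (SD, n = 3 each), higher by 0.44 (SE 0.15). That call was lost without ST with NCXI replicate 2 (0.38) or replicate 3 (0.39) or ST control replicate 2 (0.37) or replicate 3 (0.38), and under the methods' t-test and the two-way analysis of variance. Pygl averaged 6.80 ± 0.04 in ST with NCXI and 7.42 ± 0.28 in ST control (SD, n = 3 each), lower by 0.61 on the log2 scale (-0.61, SE 0.18, limma adjusted p = 0.257). Its call was kept without any single array and under each other setting tried. Against ST the difference of Pygl was -0.38 (SE 0.18), short of the threshold although the groups did not overlap.

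The remaining glycogen members were Ppp1r3a and Ppp1r3b, further subunits that bring protein phosphatase 1 to glycogen. Ppp1r3a was called higher in TC with NCXI against TC control, with means of 6.59 and 6.15 and a difference of 0.44 (SE 0.18). This was lost without TC with NCXI replicate 3 (0.29), TC control replicate 2 (0.35) or TC control replicate 3 (0.38), and under the methods' t-test and the two-way analysis of variance. In ST against ST control Ppp1r3a stood at -0.39 (SE 0.22) and was not called. It passed the threshold with the replicate block (at an unadjusted limma p of 0.0465) and without ST replicate 2 (-0.55). Ppp1r3b was called in no comparison. In TC with NCXI it had 6.17, 7.13 and 7.28, replicate 1 lying well below both the others.

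Of the sensors, Egln3 (cluster 17821879) encodes a prolyl hydroxylase that marks hypoxia-inducible factors for breakdown and is itself one of their targets. It had 7.53, 7.88 and 8.00 in ST with NCXI arrays, 7.47, 7.47 and 7.04 in ST arrays and 7.92, 8.00 and 7.58 in ST control arrays. The ST arrays lay below all the others. Egln3 fell by 0.51 in ST against ST control (SE 0.18, limma adjusted p = 0.538) and was higher by 0.48 in ST with NCXI than in ST (SE 0.18, limma adjusted p = 0.449). The call in ST was lost without ST replicate 3 (-0.36), ST control replicate 1 (-0.47) or ST control replicate 2 (-0.42). The call with NCXI was lost without ST with NCXI replicate 2 (0.44), ST with NCXI replicate 3 (0.38) or ST replicate 3 (0.33), and both were lost under the two-way analysis of variance and the methods' t-test.

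On tachycardia Egln3 had 8.88, 8.71 and 8.71 in TC with NCXI arrays, 8.08, 8.21 and 8.06 in TC arrays and 8.09, 8.24 and 7.87 in TC control arrays. Every inhibitor array lay above every other array. The difference was 0.65 from TC (SE 0.12, limma adjusted p = 0.563) and 0.70 from TC control (SE 0.12, limma adjusted p = 0.312), both called without any single array and under each other setting tried.

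Txnip (cluster 17741001) encodes a protein that is induced by sugar and restrains glucose uptake. It had 9.72, 8.48 and 8.43 in TC with NCXI arrays, 10.51, 10.29 and 9.96 in TC arrays and 10.45, 10.10 and 10.26 in TC control arrays. Every inhibitor array lay below every other, replicate 1 by the least. Txnip fell by 1.38 against TC (SE 0.32, 2.6-fold, limma adjusted p = 0.583), the lowest value among the 14557 genes in that comparison, and by 1.40 against TC control (SE 0.32). The call was kept without any single array, over -1.80 to -1.16. In the stretch experiment Txnip had 10.30, 10.35 and 10.92 in ST with NCXI arrays, 10.22, 10.74 and 11.37 in ST arrays and 10.56, 10.71 and 11.17 in ST control arrays. These overlapped, with a difference of -0.25 (SE 0.30) for ST with NCXI against ST and -0.04 (SE 0.30) for ST against ST control.

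Pfkfb4, Ppp1r3c, Hif1a and Vegfa were found through the study's sheet of genes regulated with the inhibitor, which was drawn up on these same arrays. Their values with the inhibitor are therefore a description and were given no test. Ppp1r3c, a further subunit that brings protein phosphatase 1 to glycogen, had 10.05, 10.25 and 10.18 in ST with NCXI arrays, 9.08, 8.92 and 8.96 in ST arrays and 9.33, 9.02 and 8.71 in ST control arrays. On tachycardia it had 9.59, 9.52 and 9.73 in TC with NCXI arrays, 8.81, 9.05 and 9.19 in TC arrays and 8.84, 8.85 and 9.05 in TC control arrays. The inhibitor arrays lay above every other array in both experiments, while trigger and control overlapped, with differences of -0.03 in ST (SE 0.15) and 0.11 in TC (SE 0.13).

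Vegfa, a growth factor for blood vessels and a target of hypoxia-inducible factors, had 9.37, 9.78 and 9.53 in ST with NCXI arrays, 8.73, 8.48 and 8.52 in ST arrays and 9.31, 9.49 and 8.87 in ST control arrays. The ST arrays lay below the others, 0.65 under the controls on average (-0.65, SE 0.18). On tachycardia Vegfa averaged 9.89 ± 0.03 in TC with NCXI, 9.54 ± 0.06 in TC and 9.40 ± 0.25 in TC control (SD, n = 3 each). Pfkfb4 averaged 5.91 in ST with NCXI and 5.34 in ST, and 5.75 in TC with NCXI and 5.32 in TC. Hif1a, the regulated subunit of a hypoxia-inducible factor, averaged 9.10 in ST with NCXI and 8.71 in ST, and 9.75 in TC with NCXI and 9.30 in TC. For both genes no inhibitor array overlapped with the trigger alone.

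**Figure D4:**
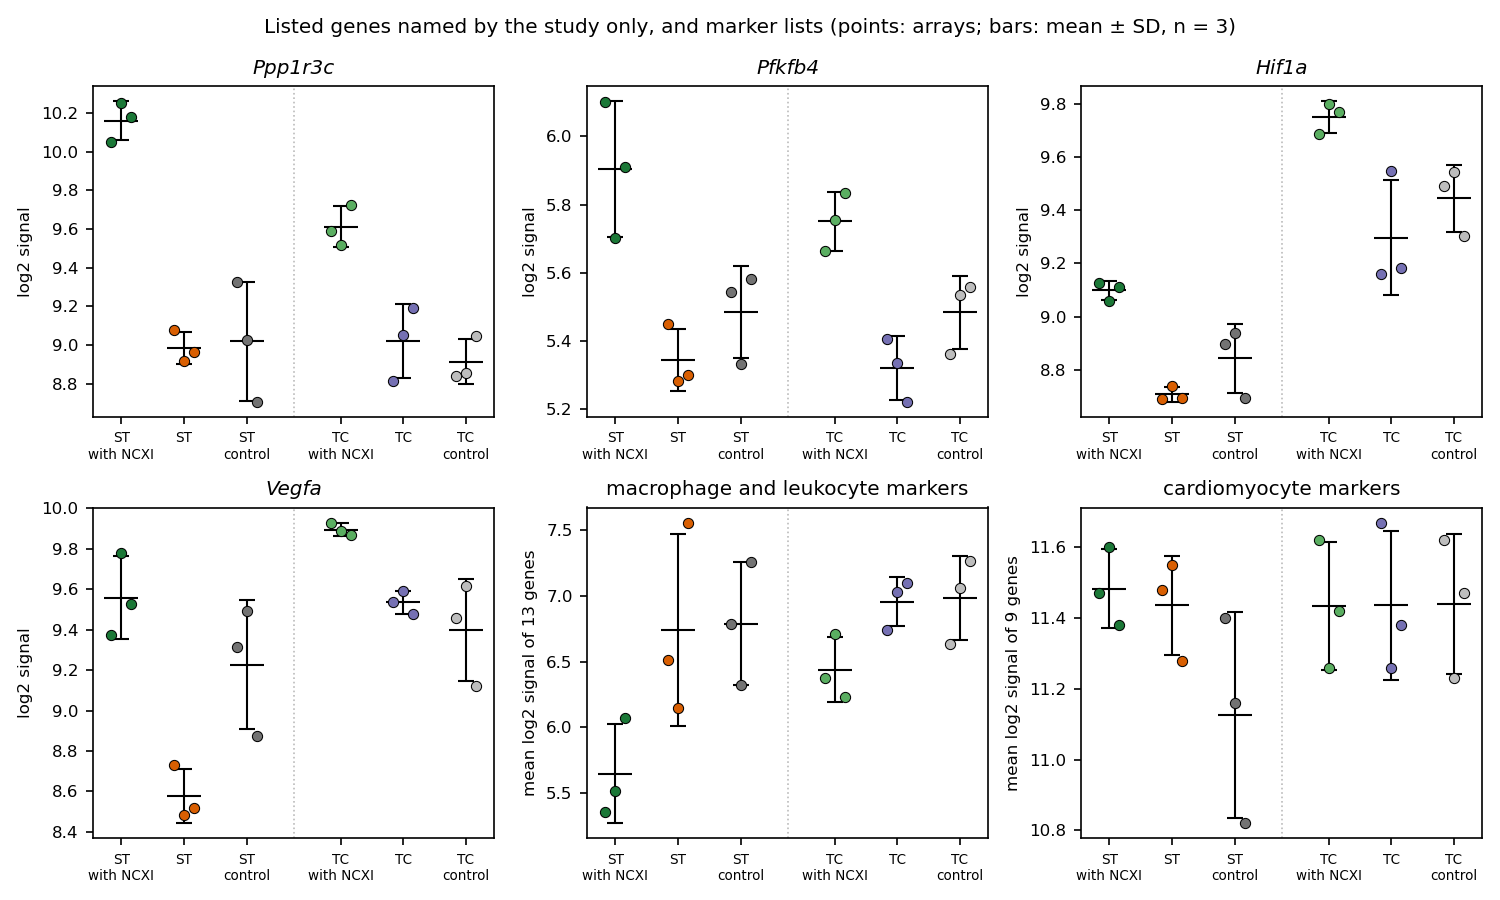
Log2 signal (y axis) per array (points) with mean and SD (bars, n = 3) for Ppp1r3c, Pfkfb4, Hif1a and Vegfa, and the mean log2 signal of 13 macrophage and leukocyte markers and 9 cardiomyocyte markers, by group (x axis). The 4 genes, taken from the study's sheet, are above the trigger alone in all inhibitor arrays. Of all clusters, 15.2% had no overlap in ST with NCXI against ST and 10.4% in TC with NCXI against TC, in either direction. The leukocyte markers are at 6.07 or under in ST with NCXI.

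A further 93 genes of these pathways and their branches were listed, also with earlier results of these data known. Of these, 61 were read on the same arrays. In ST against ST control 1 rose and 9 fell, 16.4% of the 61 against 7.45% of all clusters. In ST with NCXI against ST 7 rose and 3 fell, 16.4% against 9.13%. In TC against TC control none of the 61 was called, where 3.91% of all clusters were, and in TC with NCXI against TC 3 rose, a share of 4.92% that lay near the 5.77% of all clusters. The genes called in at least 2 of the 4 main comparisons were Irs2, Eno2, Epas1, Adm and Gfpt2. Gfpt2, which draws fructose phosphate into the hexosamine branch, had 7.22, 7.53 and 8.04 in ST with NCXI arrays, 6.69, 6.88 and 6.77 in ST arrays and 7.39, 7.70 and 7.91 in ST control arrays. ST arrays lay below the others, with differences of -0.89 in ST (SE 0.21, limma adjusted p = 0.347) and 0.82 with NCXI (SE 0.21, limma adjusted p = 0.264).

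Adm, the vasodilator peptide adrenomedullin and a target of hypoxia-inducible factors, had 7.03, 7.45 and 7.27 in ST with NCXI arrays, 6.63, 6.85 and 7.07 in ST arrays and 7.75, 7.84 and 8.15 in ST control arrays. It fell by 1.06 in ST (SE 0.17, limma adjusted p = 0.176) and was higher by 0.40 with NCXI than in ST (SE 0.17), still 0.66 below ST control (-0.66, SE 0.17). Epas1, which encodes a hypoxia-inducible factor, differed by -0.29 in ST and 0.35 with NCXI (SE 0.11 each). Adm and Epas1 are among 16 further genes of hypoxia and sugar sensing that were read. In ST against ST control 1 of these rose and 2 fell, 18.8% against 7.45% of all clusters, and 13 were not called. Among those 13, Bnip3 stood at -0.27, Ndrg1 at -0.14 and Car9 at 0.18. In ST with NCXI against ST 4 rose and 1 fell, 31.2% against 9.13%. Activity of hypoxia-inducible factors was not tested. Eno2, an enolase of neurons, was called in 3 of the 4 comparisons, at -0.47 in ST, 0.53 with NCXI on ST (SE 0.19 each) and 0.52 with NCXI on TC (SE 0.12). Irs2, an adaptor of the insulin receptor, fell by 0.49 in ST (SE 0.15) and was higher by 0.42 in TC with NCXI than in TC (SE 0.14).

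Whether the effects differed between the experiments was tested in 1 limma fit to all 18 arrays. The difference between the ST effect and the TC effect was called for 6 of 28 members (21.4%, against a background of 6.02%), 5 lower and 1 higher (3.41% and 2.61% of all clusters). For Hk2 it was -0.79 (SE 0.21, limma adjusted p = 0.522), from -0.59 in ST and 0.19 in TC. For Slc2a1 it was -0.65 (SE 0.21, limma adjusted p = 0.658), from -0.69 in ST and -0.04 in TC. Both were called without any single array. The same difference was called lower for Slc2a4, Egln3 and Ppp1r3a and higher for Slc16a3, and each of these 4 calls was lost without at least 1 array.

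The NCXI effect on ST against the NCXI effect on TC was called for 3 members (10.7%, against a background of 6.13%), all 3 higher (3.09% of all clusters were higher and 3.04% lower). For Slc2a4 it was 0.71 (SE 0.25, limma adjusted p = 0.768), from 0.82 on ST and 0.12 on TC, and was called without any single array. Hk2 and Txnip made up the 3, and both of these calls were lost without at least 1 array. For Slc2a1 the NCXI effects of 0.64 and 0.38 differed by 0.26 (SE 0.21) and for Egln3 those of 0.48 and 0.65 differed by -0.17 (SE 0.22), neither past the threshold. With the experiments 24 h and 3 h long, duration and trigger cannot be told apart in these differences.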

How the data were processed

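RNA of the 18 cultures was hybridised by the authors to Rat Gene 2.0 ST arrays and pre-processed in Partek Genomics Suite 6.6, and the deposited values are on the log2 scale. Their normalization and background correction are not given in the sources used here. Clusters were named with the platform annotation, of which 829 clusters with several symbols and 21032 with none were left out of naming. Columns of the study's gene sheet served only to name Pfkfb4, Ppp1r3c, Hif1a and Vegfa, and its fold changes and p-values were not used. The members and gene lists were chosen with earlier results of these data known.

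Each experiment (9 arrays, 3 groups) was fitted over all 36685 clusters with limma 3.58.1 in R 4.3.3 (lmFit, contrasts.fit, eBayes), with p-values adjusted by Benjamini-Hochberg over all clusters. Differences between experiments came from 1 fit to all 18 arrays. No filter was applied. Per-array values are given for members called in at least 1 of 4 comparisons (ST against control, ST with NCXI against ST, TC against control, TC with NCXI against TC). Other members are given by ranges and counts, with per-array values for a few of them chosen after their values were seen. Further pathway genes are named when called in at least 2 of the 4. Pdk4 (called in 1 of the 4), Bnip3, Ndrg1 and Car9 are exceptions, named after their values were seen. The fit was tested on simulated data. The number of arrays, 3 per group, limits the precision.

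Same-numbered arrays, as deviations from their group means, correlated at 0.124 to 0.295 in ST against control and at 0.13 to 0.252 in TC with NCXI against TC. Every pair was over 0.1, so the replicate number was taken to pair the arrays in these 2 comparisons. Counts, SEs and calls are nonetheless from the fit without the replicate block unless another setting is named. In the other comparisons at least 1 pair was lower. Same-numbered pairs still lay above every differently numbered pair in ST with NCXI against ST (0.0912 to 0.164, against at most 0.0206). They also did so in TC against control (0.0454 to 0.247, against at most -0.0157). The labels call the replicates biological without saying what sets the numbers apart. Alternatives were a replicate block, a two-way ANOVA of group and replicate number without moderated variances (the study's methods name one, followed by a Benjamini-Hochberg correction, without its factors), the methods' t-test of 2 groups alone, 1 fit to all arrays, limma's trend and robust settings, median centring, quantile normalization, a filter on dim clusters, a 1.5-fold threshold and leaving out each array. Promoters came from RefSeq on GRCr8.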

Additional observations from a re-analysis of the deposited data

Results flagged for a closer look

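For 9 values the response to a trigger or to the inhibitor differed between the stretch and the tachycardia experiment by an unadjusted limma p under 0.05, tested as the difference of the 2 effects over all 18 arrays. The smallest adjusted p was 0.522 for the trigger effects and 0.768 for the inhibitor effects.

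The ST effect was below the TC effect for 5 members. The difference was -0.79 for Hk2 (SE 0.21) and -0.65 for Slc2a1 (SE 0.21), both kept without any single array. For Slc2a4 it was -0.67 (SE 0.25), lost without TC control replicate 1 (-0.54). For Egln3 it was -0.56 (SE 0.22), lost without ST replicate 3 (-0.41), ST control replicate 2 (-0.47), TC replicate 2 (-0.51) or TC control replicate 3 (-0.46). For Ppp1r3a it was -0.63 (SE 0.29), lost under the two-way ANOVA, under median centring and without ST replicate 1 (-0.39), ST control replicate 2 (-0.55) or 3 (-0.64), ST with NCXI replicate 1 (-0.63), TC replicate 1 (-0.64), 2 (-0.62) or 3 (-0.63), TC control replicate 2 (-0.54) or 3 (-0.56) or TC with NCXI replicate 2 (-0.63). The ST effect was above the TC effect for Slc16a3, at 0.66 (SE 0.28), lost without ST replicate 1 (0.42), ST control replicate 2 (0.45), TC replicate 1 (0.60) or 2 (0.66) or TC control replicate 2 (0.64) or 3 (0.60).

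The NCXI effect on ST was above that on TC for 3 members. The difference was 0.71 for Slc2a4 (SE 0.25), kept without any single array. For Hk2 it was 0.47 (SE 0.21), with the inhibitor arrays above the trigger alone in both experiments, and it was lost without ST with NCXI replicate 2 (0.33) or 3 (0.47), ST replicate 1 (0.48) or 3 (0.39), TC with NCXI replicate 1 (0.48) or 3 (0.42) or TC replicate 2 (0.37) or 3 (0.48). For Txnip it was 1.13 (SE 0.47), lost without ST with NCXI replicate 3 (0.93), ST replicate 1 (0.85) or 2 (1.11), TC with NCXI replicate 2 (0.93) or 3 (0.90) or TC replicate 1 (1.00).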

How the results depend on the processing

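The 35 called member values (8 comparisons) kept their sign under every alternative. Of these, 17 kept the call under each of the 9 alternatives using every array that was run on them, and 18 kept it without any single array. The methods' t-test and the fit to all 18 arrays covered only 26 of the 35. The differences between the experiments were not run under these 2 alternatives. With the replicate block 8 members were called in ST against control in place of 4 (adding Slc2a4, Eno3, Slc16a3 and Ppp1r3a). The share of all clusters called there rose too, from 7.45% to 9.49%. In TC with NCXI against TC 4 were called in place of 3 (adding Slc2a1), where all clusters went from 5.77% to 7.86%. In these 2 comparisons every same-numbered pair correlated over 0.1. In the other comparisons of 2 groups at least 1 such pair was lower, down to -0.00511 in TC with NCXI against control. The block gave 8 calls in ST with NCXI against ST (11.7% of all clusters), 7 in ST with NCXI against control (12.6%) and 0 in TC against control (5.18%). It gave 7 in TC with NCXI against control (11.3%) and 7 for the ST effect against the TC effect (9.06%). For the NCXI effect on ST against that on TC it gave 6 in place of 3, as did the two-way ANOVA with 6. All clusters stood at 9.18% and 8.46% there, in place of 6.13%. The block ended no call. At 1.5-fold 2 members remained called in ST against control (2.39% of all clusters), 3 in ST with NCXI against ST (2.94%) and 1 in ST with NCXI against control (3.21%). In TC with NCXI against TC 2 remained (1.94%, ending the call of Hk2 at 0.45), and 3 in TC with NCXI against control (2.9%). The threshold itself removes smaller differences. The methods' t-test gave 3, 5 and 4 member calls in the stretch comparisons, beside 4.48%, 6.03% and 7.09% of all clusters. It gave 0, 3 and 4 in the tachycardia comparisons, beside 2.43%, 3.7% and 5.88%. After Benjamini-Hochberg adjustment it called no member.

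Without any 1 array the members called ranged over 2 to 6 in ST against control, 4 to 8 in ST with NCXI against ST, 3 to 7 in ST with NCXI against control, 0 to 1 in TC against control, 3 to 5 in TC with NCXI against TC, 5 to 8 in TC with NCXI against control, 3 to 7 for the difference of trigger effects and 1 to 5 for that of inhibitor effects. The share of all clusters called was not counted for these fits. Averaging all clusters of a gene could not differ, as every member had 1 cluster with 1 symbol. The 3 arrays a group limit what could be called, and the smallest called member difference was 0.40 (Ldhb, 1.32-fold).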
